A study of Ovis aries with 6 samples.

Results

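NADPH oxidases are membrane enzymes that pass electrons from NADPH to oxygen and release superoxide or hydrogen peroxide. A catalytic NOX subunit sits in the membrane with a small stabilising partner, and for some NOX enzymes an organiser, an activator and the GTPase Rac must assemble on it from the cytosol before it works. NOXO1 is the organiser and NOXA1 the activator best known as partners of NOX1, whereas NCF1 and NCF4 are among the cytosolic partners of CYBB, the catalytic subunit of the phagocyte oxidase.

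The genes described are NOXO1 and other NADPH oxidase subunits, taken from the count table of the ewe choroid plexus by symbol. The 9 symbols were NOXO1, NOXA1, NOX1, NOX4, CYBA, CYBB, NCF1, NCF4 and RAC1. Of these, 8 were found among 33609 genes listed, and CYBA was not analysed here. Low counts kept NOX1 out of the tests, so 7 of the 18019 tested genes are members. NOXO1 was chosen by its measured counts, since it was much lower in thyroidectomised ewes than in intact ewes in the same day length, and the others because they are subunits of the same enzyme family. The values of that comparison are therefore given for all members as a description, without a p-value for any of them, and so are those of NOXO1 against the short-day pools, which share the thyroidectomised pools.

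The epithelium of the choroid plexus secretes cerebrospinal fluid. The tissue was taken from ewes under short days with no surgery named (Short, 8 ewes), from ewes under long days likewise treated as controls (Long, 8 ewes), and from ewes under long days after thyroidectomy (THX, 7 ewes). The design text speaks of 24 ewes in all, whereas these group sizes add to 23. RNA of 3 to 4 ewes was mixed in equal amounts into each of 6 pools, 2 per group, and polyA RNA was sequenced. Breed, age and the time since surgery are not known here, and a pool hides the spread between its ewes. Pools are called by group and number, as in THX 1.

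Total counts ran from 48282883 to 82100653 per pool. TTR, the hormone carrier that marks choroid plexus epithelium, lay between 86397 and 140707 CPM (counts scaled for the size of each library) in all pools. HR and KLF9, known thyroid hormone targets, lay lower in both THX pools than in every other pool, a check of the THX label. In a principal component analysis THX 2 lay at 42.7 on the first component, against 8.60 for the next pool, and Short 1 at −38.4. THX 1 lay at −47.8 on the second component, against −5.25 for the next pool. Where leaving out 1 pool, of these or others, turned the sign of a member, the value without it is given.

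NOXO1, the organiser that holds NOX1 and its activator together, was lower in both THX pools than in any thyroid-intact pool. It had 6.62 and 6.95 CPM in Short 1 and Short 2, from 560 and 349 counts. It had 7.05 and 7.34 CPM in Long 1 and Long 2, from 395 and 399 counts. It had 1.20 and 1.34 CPM in THX 1 and THX 2, from 68 and 89 counts. The 4 intact pools thus lay close together and the 2 THX pools far below them, with no overlap. The group means were 6.79 ± 0.232 (SD, n = 2) CPM in Short, 7.19 ± 0.209 in Long and 1.27 ± 0.102 in THX pools. The Long mean was 5.67 times and the Short mean 5.35 times the THX mean. The log2 difference of THX from Long was −2.50 (SE 0.171), and that of THX from Short was −2.42 (SE 0.170). Among 14812 tested genes with a mean of at least 1 CPM, 12 had a more negative log2 difference of THX from Long than NOXO1, and 7 had a more negative one of THX from Short. These values chose the gene and carry no test. The 2 THX pools, which lay apart from each other on the principal components, were at a like level of NOXO1. Over the 14 other ways of fitting the data, which include leaving out each pool in turn, the log2 difference of THX from Long ran from −2.58 to −2.42.

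The comparison of day lengths in ewes with a thyroid did not choose NOXO1, although its Long pools are also those of the comparison that did. Both Long pools lay above both Short pools, but by little. The log2 difference of Long from Short was 0.08 (SE 0.156, 95% interval −0.29 to 0.45, adjusted p = 0.822 by edgeR's quasi-likelihood test with Benjamini-Hochberg adjustment over all tested genes). In order of level Long came first and Short next, with an interval of their difference that includes 0, and THX pools came last.

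**Figure D1:**
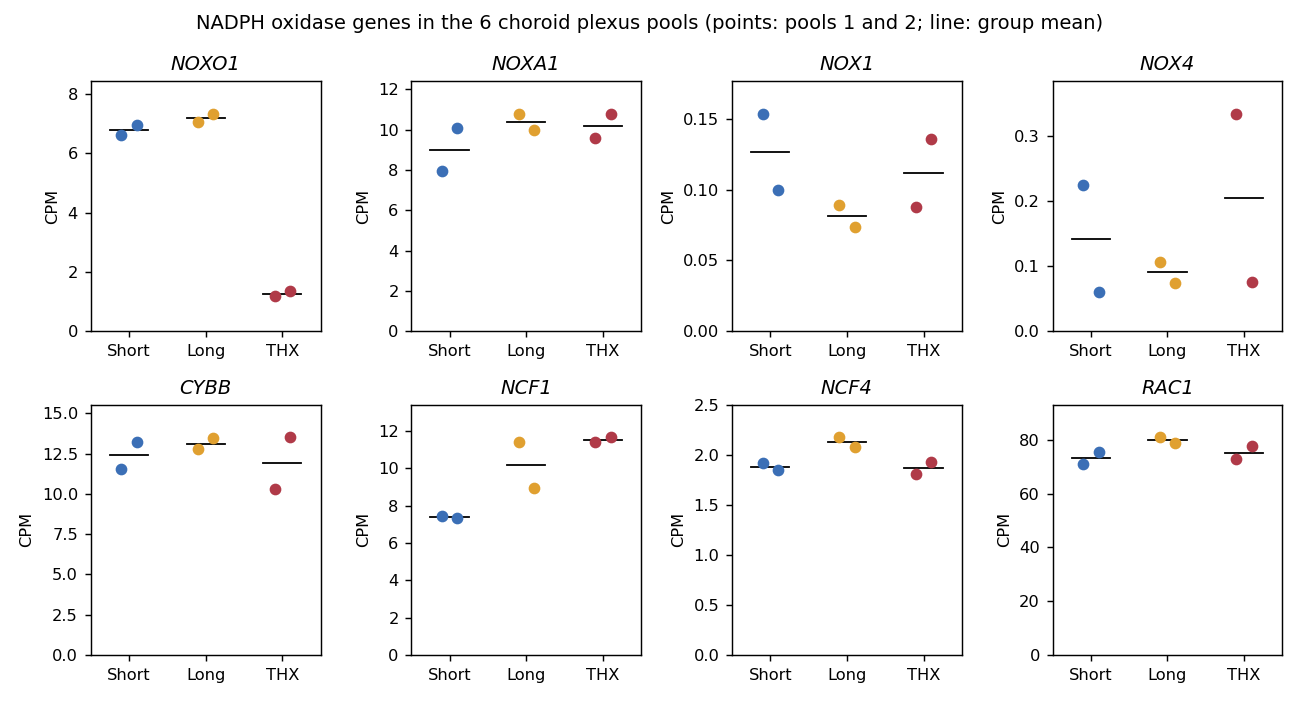
CPM of 8 NADPH oxidase genes in each pool (points, pool 1 left and pool 2 right of each group) with the group mean (line), each panel on its own linear axis from 0. NOXO1 lies between 6.62 and 7.34 CPM in the intact pools and at 1.20 and 1.34 CPM in the THX pools. The groups of CYBB and NOXA1 overlap, with CYBB at 10.3 and 13.5 CPM in THX and NOXA1 at 7.95 and 10.1 CPM in Short pools. RAC1 lies between 71.0 and 80.9 CPM.

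NOXA1, the activator that NOXO1 brings to the enzyme, showed no such gap. It had 7.95 and 10.1 CPM in Short, 10.8 and 9.97 CPM in Long, and 9.58 and 10.8 CPM in THX pools. The groups overlapped in every comparison, and Short 1 was the lowest pool. THX differed from Long by −0.03 on the log2 scale (SE 0.159), by 0.05 without THX 1 and by 0.03 without Long 1. The log2 difference of Long from Short was 0.21 (SE 0.160, 95% interval −0.17 to 0.59, edgeR adjusted p = 0.558) and that of THX from Short 0.18 (SE 0.160, 95% interval −0.20 to 0.56, edgeR adjusted p = 0.530).

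Within a pool, the share of NOXO1 in the counts of NOXO1 and NOXA1 together needs no scaling between libraries. It rests on the same NOXO1 counts that chose the gene and is given as a description of them. That share was 45.5% and 40.9% in the Short pools and 39.5% and 42.4% for Long. In both THX pools it was 11.1%, with exact (Clopper-Pearson) 95% intervals of 8.73% to 13.9% in THX 1 and 8.98% to 13.4% in THX 2. These intervals cover counting error only, and since gene length is not accounted for the share is read between pools and not as a ratio of molecules. Against NCF1, the organiser of the phagocyte oxidase, the share of NOXO1 was 47.1% and 48.7% in Short, 38.1% and 45.1% in Long, and 9.51% and 10.3% in THX pools.

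**Figure D2:**
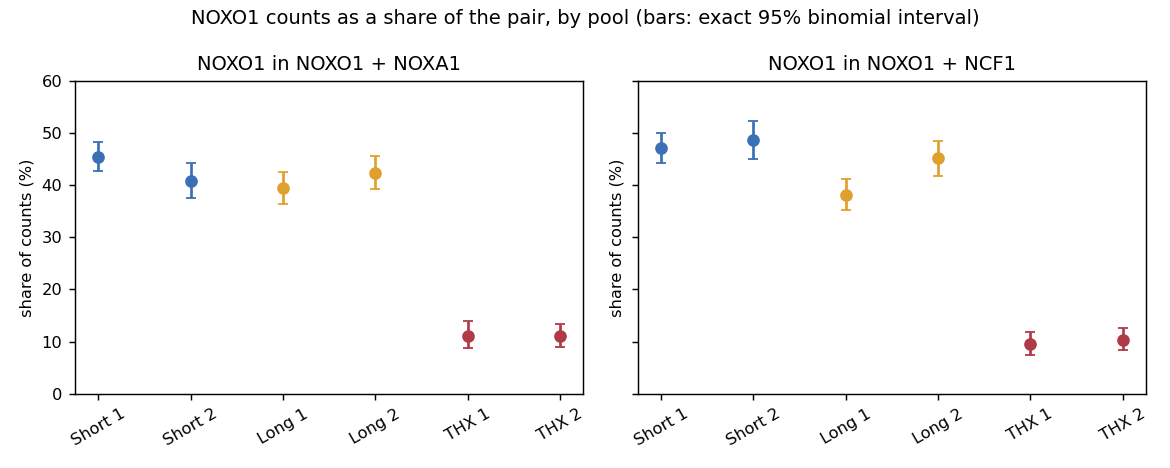
NOXO1 counts as a percentage of NOXO1 plus NOXA1 counts (left) and of NOXO1 plus NCF1 counts (right) in each pool, with exact 95% binomial intervals. The THX pools lie between 9.51% and 11.1%, and the lowest intact pool at 38.1%.

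The catalytic subunit best known as the partner of NOXO1 was scarce. NOX1, the usual partner of NOXO1, had 13 and 5 counts in Short, 5 and 4 in Long, and 5 and 9 in THX pools. It summed to 41 counts over all pools and lay between 0.0736 and 0.154 CPM. The exact Poisson 95% interval was 0.0819 to 0.263 CPM in Short 1, the highest pool, and 0.0201 to 0.188 CPM in Long 2, the lowest, so these overlapped. Both Long pools lay below both Short pools, beside 26.8% of all tested genes. NOX1 was not tested, and at these counts neither a difference between the groups nor the lack of one is read from them.

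NOX4, a NOX enzyme that makes hydrogen peroxide without organiser or activator, was as scarce. It had 19 and 3 counts in Short, 6 and 4 in Long, and 19 and 5 in THX pools. Its high pools were Short 1 and THX 1, 1 from each of 2 groups, and it passed the filter on low counts through those. The exact Poisson 95% interval was 0.201 to 0.522 CPM in THX 1 and 0.0245 to 0.176 CPM in THX 2, so the pools of that group differed by more than counting error. The log2 difference of THX from Long was 1.13 (SE 0.939) and turned to −0.26 without THX 1. That of Long from Short was −0.74 (SE 0.950, edgeR adjusted p = 0.739) and 0.58 without Short 1. That of THX from Short was 0.39 (SE 0.851, edgeR adjusted p = 0.804) but −0.99 without THX 1 and −0.16 without Short 2.

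CYBB, the catalytic subunit of the phagocyte oxidase, was measured well and overlapped between all groups. It had 11.6 and 13.2 CPM in Short, 12.8 and 13.5 CPM in Long, and 10.3 and 13.5 CPM in THX pools. THX 1 was the lowest and THX 2 the highest of the 6 pools. THX differed from Long by −0.14 on the log2 scale (SE 0.161), and by 0.04 without THX 1. Long differed from Short by 0.08 (95% interval −0.30 to 0.46, edgeR adjusted p = 0.829), and by −0.01 without Short 1. THX differed from Short by −0.06 (95% interval −0.44 to 0.32, edgeR adjusted p = 0.858), by 0.13 without THX 1 and by 0.04 without Short 2.

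NCF1, the organiser of the phagocyte oxidase and the counterpart of NOXO1, had its lowest values in the Short pools. It had 7.45 and 7.33 CPM in Short, 11.4 and 8.92 CPM in Long, and 11.4 and 11.7 CPM in THX pools. Both Long and both THX pools lay above both Short pools (as in 25.7% of all tested genes for THX), whereas Long and THX overlapped. The log2 difference of Long from Short was 0.46 (SE 0.155, 95% interval 0.10 to 0.83) and did not pass (edgeR adjusted p = 0.342, unadjusted p = 0.0204). That of THX from Short was 0.64 (SE 0.154, 95% interval 0.28 to 1.01) and did not pass either (edgeR adjusted p = 0.0972). DESeq2 called the latter (log2 difference 0.65, adjusted p = 0.00609), and over the alternatives its adjusted p ran from 0.00609 to 0.353. The log2 difference of THX from Long was 0.18 (SE 0.153), opposite in sign to that of NOXO1.

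NCF4, which binds a membrane lipid and sustains the phagocyte oxidase, varied little. It had 1.92 and 1.85 CPM in Short, 2.18 and 2.08 CPM in Long, and 1.81 and 1.93 CPM in THX pools. The Long pools were the highest and did not overlap with either of the other groups. The log2 difference was −0.19 (SE 0.206) for THX from Long and 0.17 (SE 0.206, edgeR adjusted p = 0.714) for Long from Short. For THX from Short it was −0.01 (SE 0.206, edgeR adjusted p = 0.981), and above 0 without Short 1 (0.01) or THX 1 (0.04).

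RAC1, the widely expressed Rac GTPase that also steers actin, had the narrowest relative range. It had 71.0 and 75.4 CPM in Short, 80.9 and 79.0 CPM in Long, and 72.9 and 77.6 CPM in THX pools. The Long pools were again the highest, without overlap. On the log2 scale the difference of THX from Long was −0.09 (SE 0.0763), that of Long from Short 0.13 (SE 0.0763, 95% interval −0.05 to 0.31, edgeR adjusted p = 0.461) and that of THX from Short 0.04 (SE 0.0762, 95% interval −0.14 to 0.22, edgeR adjusted p = 0.776), the last of which was −0.06 with total counts as scaling and −0.002 without Short 1. How reads that fit several Rac genes were counted is not stated, so the split between RAC1, RAC2 and RAC3 carries that uncertainty.

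**Figure D3:**
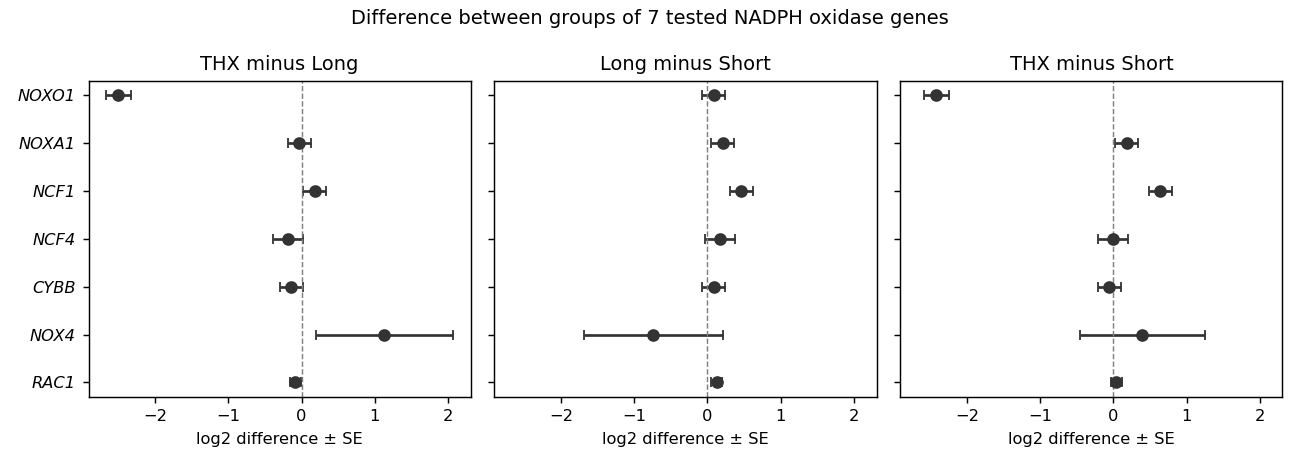
Log2 difference ± SE of the 7 tested members in each comparison, from the edgeR model. NOXO1 lies at −2.50 and −2.42 in the comparisons that hold the THX pools and at 0.08 between day lengths, and NOX4, with the widest bars, rests on 3 to 19 counts per pool.

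Apart from NOXO1, the 6 tested members had log2 differences of THX from Long between −0.19 and 1.13, with a median of −0.06, against a median of 0.00 over all tested genes. By edgeR 0 of the 6 were called in that comparison, beside 0.283% of all tested genes, and 0 had an unadjusted p under 0.05. DESeq2 and limma-voom also called 0 of the 6, beside 2.49% and 0.25% of all tested genes. Since NOXO1 was chosen in this comparison and its family with it, these counts are a description and nothing is read from them. NCF4 and RAC1 were lower in both THX pools than in both Long pools, beside 18.7% of all tested genes.

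Between day lengths edgeR called 0 of the 7 tested members and 0% of all tested genes, and 1 member, NCF1, had an unadjusted p under 0.05. DESeq2, which called 0.882% of all tested genes there, and limma-voom also called 0 of the 6 members other than NOXO1. NCF1, NCF4 and RAC1, like NOXO1, were higher in both Long pools than in both Short pools, beside 26.7% of all tested genes. In THX against Short pools edgeR called 0 of the 6 members other than NOXO1, beside 0.916% of all tested genes, and limma-voom called 0 beside 0.977%. DESeq2 called NCF1 there, beside 9.77% of all tested genes. The 3 comparisons share pools and are not independent of each other. Over all tested genes an unadjusted p under 0.05 by edgeR was reached by 9.08% for THX from Long, 13.8% for Long from Short and 22.6% for THX from Short. The counts of list genes below at that level, and by DESeq2, stand beside these shares and the DESeq2 shares of 2.49%, 0.882% and 9.77%.

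Of 14 other genes of the NADPH oxidase system, 13 were found and 10 tested. By edgeR 0 were called in each comparison, and 1, 3 and 2 had an unadjusted p under 0.05 for THX from Long, Long from Short and THX from Short. DESeq2 called SH3PXD2B, a relative of the organisers, and HVCN1 in the last of these, both lower in THX, and limma-voom called 0. Of the 10, 9 lay below 0 for THX from Long (median −0.14, lowest adjusted p = 0.404), 4 for Long from Short (median 0.07) and 8 for THX from Short (median −0.17, lowest adjusted p = 0.0580). The medians over all tested genes were 0.00, 0.00 and −0.01. The most abundant were HVCN1, the voltage-gated proton channel that balances the charge an oxidase moves, and POLDIP2, a regulator of NOX4. HVCN1 had 311 and 286 CPM in Short, 249 and 253 CPM in Long, and 227 and 219 CPM in THX pools. No pool of one group overlapped with another, in the order Short, Long, THX, but neither neighbouring step passed (edgeR adjusted p = 0.342 for Long from Short and 0.574 for THX from Long). Such a fall without overlap was found in 26.8% of all tested genes for Long from Short. For THX from Long it was found in 18.7%, and for THX from Short in 26.7%. Over both steps, THX from Short, the log2 difference was −0.42 (SE 0.0747, edgeR adjusted p = 0.0580). POLDIP2 had log2 differences of −0.10, 0.07 and −0.03 for THX from Long, Long from Short and THX from Short (edgeR adjusted p = 0.868, 0.729 and 0.876).

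RAC3, a Rac best known from neurons, had 15.1 and 19.4 CPM in Short, 20.6 and 20.1 CPM in Long, and 13.8 and 16.0 CPM in THX pools. Both THX pools lay below both Long pools (log2 difference −0.45, SE 0.146, edgeR adjusted p = 0.404), as in 18.7% of all tested genes. RAC2, the Rac of blood cells, had a log2 difference of −0.24 for THX from Long (edgeR adjusted p = 0.861). RAC2, RAC3 and the genes in the next paragraph were singled out after their values were seen.

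Other catalytic subunits gave low or uneven counts. NOX5, a NOX enzyme switched on by calcium, had 1.96 and 3.15 CPM in Short, 3.51 and 1.16 CPM in Long, and 3.64 and 0.859 CPM in THX pools. The spread inside the Long and THX groups was larger than any difference between group means, which were 2.56, 2.34 and 2.25 CPM. NOX3, known from the inner ear and a further partner of NOXO1, had 9 to 23 counts per pool. NOX3 lay at 0.260 and 0.199 CPM in Short, 0.214 and 0.423 CPM in Long, and 0.158 and 0.136 CPM in THX pools, so both THX pools were below the other 4. Of all tested genes, 18.7% had both THX pools below both Long pools, and 26.7% below both Short pools. The log2 difference of NOX3 was −1.11 for THX from Long (edgeR adjusted p = 0.621) and −0.66 for THX from Short (edgeR adjusted p = 0.494). DUOX1 and DUOX2, the dual oxidases that supply hydrogen peroxide to thyroid hormone synthesis, summed to 19 and 5 counts over all pools. A count of 0, as DUOX2 had in 2 pools, allows up to 3 counts, or 0.0355 to 0.0598 CPM depending on the pool. DUOXA2, the maturation factor of DUOX2, summed to 857 counts and lay between 1.76 and 3.11 CPM. Its log2 difference was −0.43 for THX from Long (SE 0.252, edgeR adjusted p = 0.731) and 0.52 for Long from Short (SE 0.252, edgeR adjusted p = 0.389).

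**Figure D4:**
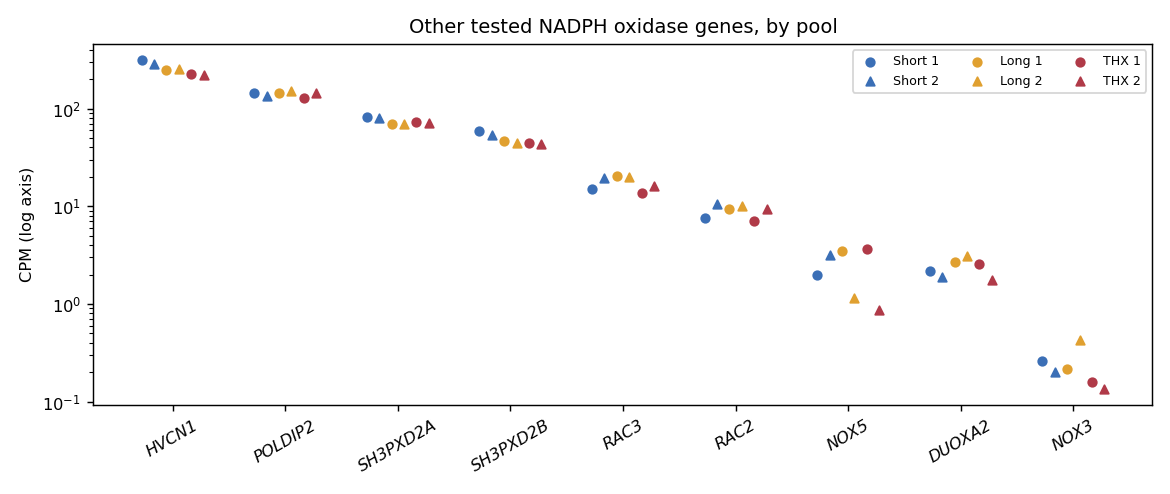
CPM on a log axis of 9 tested genes of the NADPH oxidase system that are no members, by pool (circles pool 1, triangles pool 2). The pools of NOX5 spread from 0.859 to 3.64 CPM within the THX group, and those of HVCN1 step down from 311 to 219 CPM, and since CPM are not per length the genes are not compared with each other.

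The level of phagocyte subunits in whole tissue depends on how many phagocytes it holds, and in pooled tissue fewer cells and less RNA per cell cannot be told apart. Of 22 macrophage markers 20 were found and tested. All of edgeR, DESeq2 and limma-voom called 0 in each comparison, and 5, 3 and 4 had an unadjusted p under 0.05 by edgeR for THX from Long, Long from Short and THX from Short. Their summed level was 370 and 419 CPM in Short, 443 and 463 CPM in Long, and 386 and 420 CPM in THX pools. Of the 20 markers, 15 lay below 0 for THX from Long (median −0.11) and 15 above 0 for Long from Short (median 0.20). LAPTM5 and CSF1R, the most abundant, had log2 differences of −0.04 and −0.13 for THX from Long. CYBB amounted to 2.67% to 3.21% of the summed macrophage level in each pool. NCF4 amounted to 0.442% to 0.518%. NCF1 amounted to 2.02% and 1.75% in Short, 2.58% and 1.93% in Long, and 2.95% and 2.77% in THX pools, so both THX pools lay above the other 4 on this measure. The part of macrophage number in the values of NCF1 was not tested.

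Neutrophils also carry the phagocyte oxidase. Of 12 neutrophil markers 9 were found and 4 tested. In each comparison edgeR, DESeq2 and limma-voom called 0, with 0 at an unadjusted p under 0.05 by edgeR. Their summed level was 20.2 and 20.8 CPM in Short, 19.6 and 13.5 CPM in Long, and 17.3 and 21.0 CPM in THX pools, nearly all of it CXCR2 at 11.4 to 19.0 CPM. S100A9 lay between 0.568 and 1.15 CPM, and the granule genes MPO, AZU1, PRTN3 and LTF had at most 0.0753 CPM in any pool.

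Of the markers of other cell types, a few were called by edgeR in the comparisons that hold the THX pools. The 16 markers of mural cells and fibroblasts summed to 1760 and 2263 CPM in Short, 1910 and 1795 CPM in Long, and 1347 and 1641 CPM in THX pools, so the THX pools were the lowest. Of 15 tested, 13 lay below 0 for THX from Long (median −0.27), 10 for Long from Short (median −0.06) and 14 for THX from Short (median −0.50). DESeq2 called LUM and COL3A1 for THX from Long, these with RGS5, DCN and PDGFRA for THX from Short, and 0 for Long from Short. At an unadjusted p under 0.05 edgeR had 4, 4 and 8 for THX from Long, Long from Short and THX from Short. By edgeR LUM, a collagen-binding proteoglycan, fell in THX against Long and in THX against Short (edgeR adjusted p = 0.0314 and 0.0351). LUM passed in 0 and 1 of the 6 fits that left out 1 pool, the 1 being without THX 1, with log2 differences from −0.81 to −0.66 and from −0.66 to −0.54. RGS5 and PDGFRB, the most abundant, had log2 differences of −0.19 and 0.00 for THX from Long. The 15 endothelial markers, with VWF and EGFL7 the most abundant, had 0 calls by edgeR and limma-voom in each comparison, though 1, 3 and 6 had an unadjusted p under 0.05 by edgeR and DESeq2 called EMCN and FLT1 in THX against Short. They summed to 1112 and 1350 CPM in Short, 1254 and 1188 CPM in Long, and 1157 and 1185 CPM in THX pools. The 15 tested markers of the choroid plexus epithelium summed, with TTR as most of it, to 96907 and 101994 CPM in Short, 116296 and 118249 CPM in Long, and 127010 and 148554 CPM in THX pools. Of them 9 lay above 0 for THX from Long (median 0.05), whereas 10 lay below 0 for Long from Short (median −0.16) and 11 for THX from Short (median −0.19). DESeq2 called 4, 2 and 8 in these comparisons, TTR among the last, and edgeR had 7, 7 and 10 at an unadjusted p under 0.05. By edgeR HTR2C, a serotonin receptor, fell in THX against Long (edgeR adjusted p = 0.0203), and HTR2C and KL, the klotho gene, fell in THX against Short (edgeR adjusted p = 0.00168 and 0.0330). Among fits that left out 1 pool, HTR2C passed in 0 of 6 for THX from Long (log2 difference −0.76 to −0.70) and in 6 of 6 for THX from Short, and KL passed without THX 1 alone (log2 difference −0.96 to −0.73). The part of these cell types in the lower NOXO1 level was not tested.

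Regulators of Rac and kinases that act on the oxidase had 0 calls by edgeR and limma-voom in every comparison. At an unadjusted p under 0.05 edgeR had 2, 3 and 5 of the first and 2, 0 and 2 of the second for THX from Long, Long from Short and THX from Short, and DESeq2 called PRKCB in the last. Of 22 tested regulators of Rac, 13 lay below 0 for THX from Long (median −0.04), 17 for Long from Short (median −0.15) and 17 for THX from Short (median −0.15). ABR and ARHGDIA, which switch off or hold Rac, had log2 differences of 0.03 and −0.08 for THX from Long. Of 12 kinases known to phosphorylate organisers, activators or their regulators, 7 lay below 0 for THX from Long (median −0.01), 10 for Long from Short (median −0.09) and 7 for THX from Short (median −0.09). AKT1 and PAK2, the most abundant, had log2 differences of −0.04 and −0.01 for THX from Long.

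Genes that remove superoxide and peroxide had 0 calls by edgeR and limma-voom in every comparison as well. At an unadjusted p under 0.05 edgeR had 2, 5 and 6 of them, and DESeq2 called TXNRD1 in THX against Long and TXNRD1, PRDX2, GPX4 and PRDX6 in THX against Short. Of 20 tested, 15 lay below 0 for THX from Long (median −0.07), whereas 18 lay above 0 for Long from Short (median 0.20) and 14 for THX from Short (median 0.13). In 15 of the 20 both Long pools lay above both Short pools, beside 26.7% of all tested genes. GPX3, a secreted glutathione peroxidase, had log2 differences of −0.16, 0.00 and −0.16 in the same order of comparisons, and PRDX6, a peroxiredoxin, 0.17, 0.18 and 0.35 (edgeR adjusted p = 0.543, 0.350 and 0.0740). Of 15 tested enzymes that make superoxide or peroxide by other means, 8 lay below 0 for THX from Long (median −0.02), 8 for Long from Short (median −0.06) and 11 for THX from Short (median −0.10). By edgeR and limma-voom 0, 0 and 1 of them were called in these comparisons, with 3, 1 and 3 at an unadjusted p under 0.05 by edgeR. P4HB, which folds proteins in the endoplasmic reticulum, was the most abundant and had a log2 difference of −0.03 for THX from Short.

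The genes whose pattern over the 6 pools was most like that of NOXO1 were found among 12626 named genes with a mean of at least 1 CPM, by the Euclidean distance between log2 CPM centred on each gene's mean. The closest was NPPC, which encodes C-type natriuretic peptide, at a distance of 0.516. It had 5.62 and 7.65 CPM in Short, 6.62 and 6.46 CPM in Long, and 1.21 and 1.76 CPM in THX pools. SERTAD4 (distance 0.686), BRINP1 (0.723), the nuclear corepressor HR (0.748) and the glutamate transporter SLC1A7 (0.955) followed. Each of the 5 lay lower in both THX pools than in all 4 intact pools, the pattern for which they were picked. Nearest patterns of further members were EGFL7 for NOXA1 (distance 0.0659), DUSP22 for CYBB (0.0690), PSMC2 for NCF4 (0.0356), BOP1 for RAC1 (0.0254) and FABP4 for NOX4 (0.641).

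The genes next to NOXO1 on the chromosome had smaller log2 differences of THX from the intact groups than NOXO1. In the sheep RefSeq table TBL3 and RNF151 precede NOXO1, GFER and SYNGR3 follow it, and 0 genes overlap it. The genome build behind the counts is not stated, so positions are not printed. TBL3, a ribosome assembly protein, had 28.2 and 31.2 CPM in Short, 34.2 and 34.1 CPM in Long, and 28.0 and 32.1 CPM in THX pools (log2 difference of THX from Long −0.18, edgeR adjusted p = 0.692). GFER, a sulfhydryl oxidase of mitochondria, had 27.1 and 30.4 CPM in Short, 33.8 and 36.5 CPM in Long, and 28.4 and 32.0 CPM in THX pools (log2 difference −0.22, edgeR adjusted p = 0.606). SYNGR3, a synaptic vesicle protein, had 17.6 and 11.7 CPM in Short, 12.7 and 14.7 CPM in Long, and 8.82 and 11.3 CPM in THX pools (log2 difference −0.45, edgeR adjusted p = 0.632). RNF151 had 0 counts in all pools, which allows up to 3 counts in each. In all 3 measured neighbours both THX pools lay below both Long pools, as in 18.7% of all tested genes. For SYNGR3 they also lay below both Short pools, as in 26.7% of all tested genes. The log2 differences of THX from Short were 0.02 for TBL3, 0.07 for GFER and −0.55 for SYNGR3 (edgeR adjusted p = 0.931, 0.708 and 0.204).

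**Figure D5:**
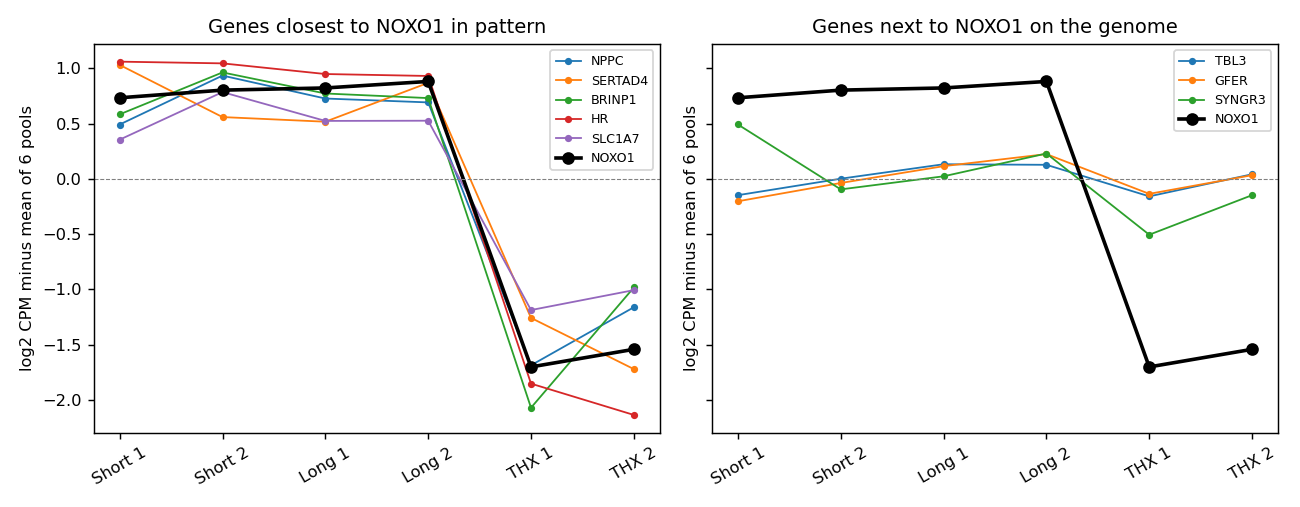
Log2 CPM of NOXO1 (black) in each pool minus its mean over the 6 pools, with the 5 genes of the closest pattern (left) and with its measured neighbours on the genome (right). NPPC, SERTAD4, BRINP1, HR and SLC1A7 drop with NOXO1 in both THX pools, and TBL3, GFER and SYNGR3 stay between −0.51 and 0.49.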

How the data were processed

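PolyA RNA of 6 pools was sequenced, and the library kit kept strand, per the labels' protocols. The authors deposited raw counts per gene. The submitters' processing notes name TopHat2 2.1.1 and featureCounts 2.0.0, besides SAMtools 1.9, bcl2fastq 2.20, MultiQC 1.9 and FastQC 0.11.8. Build, annotation, strand setting and the treatment of reads with several matches are not given in the sources used. Identifiers were matched to a sheep RefSeq table for neighbouring genes only (28100 of 33609 matched, with all 8 members).

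Genes with few counts were left out with filterByExpr of edgeR 4.0.16 (R 4.3.3), and TMM-scaled counts of all 6 pools went into a single quasi-likelihood fit with a mean for each group, with 3 residual and 3.96 prior degrees of freedom. Tests were two-sided and adjusted over 18019 genes by the Benjamini-Hochberg method, with a threshold of 0.05. The 95% intervals of log2 differences use the model's SE and moderated degrees of freedom. The pools of a group differed by 15.8 to 70.4 times the variance of counting, so they were not the same library sequenced again. The p-values rest on that spread between pools, not between single ewes. The procedure was run on counts simulated with known differences, at the spread fitted to these data. Those counts held no outlying pools, so the run does not cover them. Its outcome is not reported here, and no rate of false calls is read from it. Alternatives used DESeq2 1.42.0, limma-voom (limma 3.58.1), other scalings, filters, pools and a term for the pool number. Python 3.11.15 and matplotlib 3.10.9 drew the figures.

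The members and gene lists were chosen with earlier results of these data known. The naming rule took all members, every called gene and the most abundant 2 of each list, the 5 patterns nearest NOXO1 and 3 nearest each other member (1 of which is printed), and the nearest 2 genes on each side of NOXO1. Some genes that this rule takes are not reported here. Sequences were not used.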

Additional observations from a re-analysis of the deposited data

How the results depend on the processing

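The numbers of called genes depended on the settings. In THX against Long pools 51 genes were called, against 204 with no filter on low counts, 448 by DESeq2 and 22 with only the 4 pools compared, and from 2 (without Long 2) to 37 (without THX 2) when 1 pool was left out (24, 24, 9 and 13 without Short 1, Short 2, Long 1 and THX 1). In Long against Short pools 0 were called (2486 at an unadjusted p under 0.05), against 159 by DESeq2, and from 0 to 4 (without Long 1, and 1 without Short 2) with 1 pool left out. In THX against Short pools 165 were called, against 259 with total counts as scaling (which shifted the median of all genes to −0.11, and gave 49 higher and 210 lower against 57 and 108), 908 with no filter, 1761 by DESeq2 (881 higher and 880 lower), 11 with only the 4 pools compared, and from 10 (without Short 1) to 1087 (without THX 1) with 1 pool left out (36, 16, 16 and 80 without Short 2, Long 1, Long 2 and THX 2). With the pool number as a replicate block the counts were 48, 0 and 392. Whether the numbers mark a pairing or a batch is not known here. The deviations of same-numbered pools correlated at −0.06 for Short and Long, 0.21 for Short and THX, and 0.07 for Long and THX. With 2 pools per group these values cannot decide it. The cause of these moves was not tested. NOXO1 kept its log2 difference of THX from Long between −2.58 and −2.42 and that of THX from Short between −2.52 and −2.33 over 14 alternatives each. Signs of members turned, without a call. THX from Long ran from −0.115 to 0.0514 for NOXA1 (0.0288 without Long 1, the highest without THX 1), from −0.347 to 0.0410 for CYBB (above 0 without THX 1), and from −0.26 (without THX 1) to 1.86 for NOX4, with 1 pool left out. Leaving out 1 pool at a time, Long from Short ran from −1.29 to 0.58 for NOX4 (above 0 without Short 1) and from −0.0117 (without Short 1) to 0.183 for CYBB. THX from Short ran from −0.99 (without THX 1) to 1.71 for NOX4, which was also at −0.16 without Short 2. It ran from −0.0490 to 0.0362 for NCF4 (0.0145 without Short 1, the highest without THX 1), from −0.00236 (without Short 1) to 0.0887 for RAC1, and from −0.258 to 0.131 for CYBB (0.0432 without Short 2, the highest without THX 1). With total counts RAC1 was at −0.0597. NOX1 was not tested under the filter used, and it is not reported under another. The called genes of the marker and pathway lists were put through the same alternatives, a step chosen after seeing the data, and kept their direction. KLF9 missed the threshold for THX from Long without Long 2 (log2 difference −1.41 by edgeR, adjusted p = 0.0882), and HR in no alternative. Among the members depth limits NOX1 and NOX4 most, at 3 to 19 counts per pool.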
